A study of Mus musculus with 2 samples.

Results

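The 10 genes described here encode the catalytic and core subunits of the H3K4 methyltransferase complexes, and the question was where the chromatin remodeler SRCAP was mapped at their promoters in mouse embryonic stem cells (mESCs). They were chosen by name, and all 10 were found in GENCODE mouse release 21, among 21938 protein-coding genes on chromosomes 1 to 19, X and Y. A promoter was the stretch from 1000 bp upstream to 500 bp downstream of any annotated transcription start site (TSS) of the gene in mm10, and a gene was counted as bound in a replicate if a peak of that replicate overlapped this stretch by at least 1 bp. Binding was measured by CUT&Tag, in which an antibody against GFP, here recognising the YPet tag on SRCAP, directs the Tn5 transposase to the tagged protein. Both samples are SYAT mESCs, a line derived from CGR8 cells with stable expression of the auxin receptor OsTir1 and with YPet fused to an auxin-inducible degron (AID) at both Srcap alleles. OsTir1 was introduced into 1 homozygous clone of the tagged line, so both samples descend from that clone. Both samples were untreated (NT) and grown with auxinole, which prevents basal SRCAP degradation, so they form 1 group of 2 replicates and no comparison between conditions could be made. The reporting summary describes replicates in general as independent cultures, and the labels do not say so for these samples.

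Methylation of H3K4, a lysine in the tail of histone H3, marks active promoters and enhancers and, together with H3K27me3, the bivalent promoters of lineage genes in pluripotent cells. It is written by complexes that each contain 1 catalytic subunit and share a core. Kmt2a and Kmt2b (MLL1 and MLL2) act at subsets of promoters, with Kmt2b known for bivalent promoters in mESCs, Kmt2c and Kmt2d (MLL3 and MLL4) place monomethylation at enhancers, and Setd1a and Setd1b carry the SET1/COMPASS activity that accounts for most trimethylation at active promoters. The core is formed by Wdr5, Rbbp5, Ash2l and Dpy30. SRCAP deposits the histone variant H2A.Z, which is abundant at the same kinds of promoters.

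SRCAP peaks were found at the promoters of 6 of the 10 genes, all 6 in replicate 2, and at 2 of them, Kmt2c and Dpy30, in both replicates. Replicate 1 had a peak at 2 of the 10 promoters, where 15.7% of all protein-coding genes had one. Replicate 2 had a peak at 6 of the 10, where 30.4% of all protein-coding genes had one. The count in both replicates, 2 of 10, stood beside 12.0% of all protein-coding genes. The mean over replicates was 4 ± 2.83 genes (SD, n = 2), so the spread between replicates was most of the mean. Both genes bound in replicate 1 were also bound in replicate 2, and 2 of the 6 genes bound in replicate 2 were bound in replicate 1. Across all protein-coding genes, 76.7% of those bound in replicate 1 were bound in replicate 2, and 39.7% of those bound in replicate 2 were bound in replicate 1. By role, replicate 2 had peaks at 3 of 6 catalytic subunits (Kmt2a, Kmt2b and Kmt2c) and 3 of 4 core subunits (Wdr5, Ash2l and Dpy30). Replicate 1, and both replicates together, had 1 of 6 and 1 of 4. Beside these stood 30.4% (replicate 2), 15.7% (replicate 1) and 12.0% (both) of all protein-coding genes. Kmt2d, Setd1a, Setd1b and Rbbp5 had no promoter peak in either replicate.

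There were 6158 peaks in replicate 1 and 12958 in replicate 2. The lists carry a score from the peak caller, read as 10 times the −log10 of the q-value, which started at 13 in both lists, but no read numbers. Depth is therefore unknown, scores are not comparable between the lists, and a gene without a peak is not shown to lack SRCAP.

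The following sequences were chosen because they carry the main differences among the peaks of these genes. For Dpy30 (chr17:74316225-74316524), Kmt2c (chr5:25499439-25499738) and Setd1b (chr5:123149903-123150202), they are the central 300 bases of the stretch covered by peaks of both replicates. For Kmt2b (chr7:30589088-30589387) and Wdr5 (chr2:27515614-27515913), they are the central 300 bases of the replicate 2 peak, shown as the highest-scoring peak found in that replicate only and as the promoter peak with the lowest CpG content. All are read from GRCm38, the assembly of mm10, 5′ to 3′ on the strand of the gene, which is minus for Dpy30, Kmt2c and Kmt2b and plus for Setd1b and Wdr5. Capitals mark matches on either strand to the cores CCAAT (NF-Y), ATGGCG (YY1), GCATGCG (NRF1) and TCGCGA (ZBTB33), and no match to a core overlapped a match to another core.
Dpy30: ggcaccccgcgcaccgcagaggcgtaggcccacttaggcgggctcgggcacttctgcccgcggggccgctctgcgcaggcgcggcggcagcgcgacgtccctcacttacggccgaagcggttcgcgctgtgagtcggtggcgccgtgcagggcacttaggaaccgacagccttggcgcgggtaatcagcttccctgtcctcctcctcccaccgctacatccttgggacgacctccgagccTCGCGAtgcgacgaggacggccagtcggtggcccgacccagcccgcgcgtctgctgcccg
Kmt2c: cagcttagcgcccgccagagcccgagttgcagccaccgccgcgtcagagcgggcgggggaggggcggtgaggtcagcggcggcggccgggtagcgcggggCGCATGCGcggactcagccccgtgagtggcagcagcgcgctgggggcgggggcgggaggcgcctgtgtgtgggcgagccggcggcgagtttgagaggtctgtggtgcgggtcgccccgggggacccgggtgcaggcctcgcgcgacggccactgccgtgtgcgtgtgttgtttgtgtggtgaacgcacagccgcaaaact
Kmt2b: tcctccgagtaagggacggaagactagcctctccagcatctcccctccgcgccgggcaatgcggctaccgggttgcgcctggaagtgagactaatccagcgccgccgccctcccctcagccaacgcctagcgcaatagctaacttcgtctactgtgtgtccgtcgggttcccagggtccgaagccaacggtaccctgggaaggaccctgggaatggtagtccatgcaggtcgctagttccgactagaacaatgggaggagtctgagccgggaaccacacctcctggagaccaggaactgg
Wdr5: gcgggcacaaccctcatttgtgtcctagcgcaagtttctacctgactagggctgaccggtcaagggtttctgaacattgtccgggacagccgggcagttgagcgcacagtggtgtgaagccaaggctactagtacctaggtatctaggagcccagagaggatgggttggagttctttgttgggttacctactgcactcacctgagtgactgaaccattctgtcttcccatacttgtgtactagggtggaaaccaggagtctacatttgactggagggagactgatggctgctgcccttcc
Setd1b: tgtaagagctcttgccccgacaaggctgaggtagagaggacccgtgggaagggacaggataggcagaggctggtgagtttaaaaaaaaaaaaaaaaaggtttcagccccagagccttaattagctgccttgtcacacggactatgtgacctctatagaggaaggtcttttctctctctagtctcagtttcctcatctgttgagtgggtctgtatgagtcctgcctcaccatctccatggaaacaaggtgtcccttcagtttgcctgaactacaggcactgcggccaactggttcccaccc
The Dpy30 and Kmt2c stretches held 41 and 40 CpG dinucleotides, the Kmt2b stretch 21, the Wdr5 stretch 6 and the Setd1b stretch 4.

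**Figure D1:**
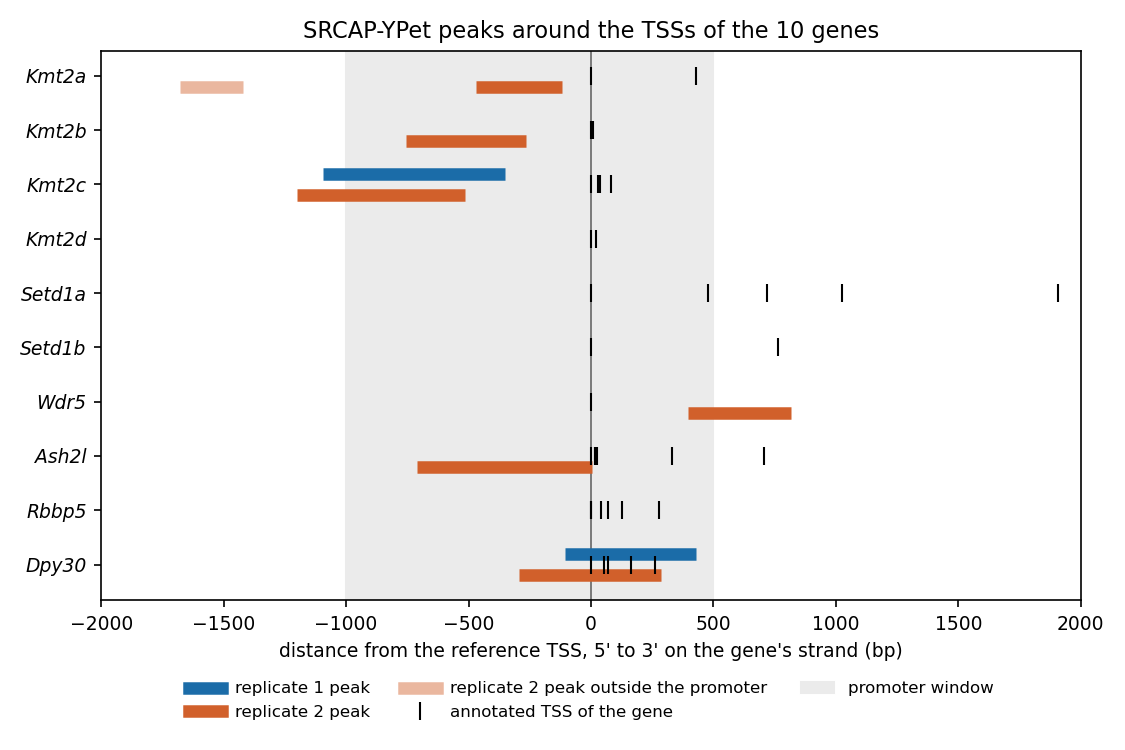
SRCAP-YPet peaks (bars, replicate 1 in blue and replicate 2 in orange) are plotted against the distance in bp from a reference TSS of each of the 10 genes, which is the TSS nearest to the replicate 2 promoter peak or, without a promoter peak, the 5′-most protein-coding TSS. Black ticks are annotated TSSs of the gene and the grey area is the promoter window of the reference TSS. The Dpy30 peaks cover the TSS, the Ash2l peak reaches it, those of Kmt2a, Kmt2b and Kmt2c lie upstream and that of Wdr5 lies downstream.

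Among the catalytic subunits, only Kmt2c had a promoter peak in both replicates. Kmt2c (ENSMUSG00000038056.15, MLL3, an enhancer H3K4 monomethyltransferase) spans 226986 bp on the minus strand of chromosome 5 and has 8 annotated TSSs, of which 4 lie within 81 bp at its 5′ end. The replicate 1 peak was at chr5:25499134-25499877, 744 bp wide, with a score of 26. The replicate 2 peak was at chr5:25499299-25499983, 685 bp wide, with a score of 53. The peaks shared 579 bp, which was 77.8% of the replicate 1 peak and 84.5% of the replicate 2 peak. Relative to the nearest Kmt2c TSS, with negative values upstream, the midpoints lay at −722 and −858 bp, so neither peak contained a TSS of the gene and both lay entirely outside the annotated gene. They lay within 4831440E17Rik, a long intergenic noncoding RNA gene on the opposite strand whose TSS is 284 bp from that of Kmt2c, with midpoints 438 and 574 bp downstream of its TSS. The same peaks thus also count as promoter peaks of the noncoding gene.

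Kmt2a and Kmt2b were bound in replicate 2 only, and both peaks lay upstream of the gene. At Kmt2a (ENSMUSG00000002028.13, MLL1, known for maintaining Hox gene expression), on the minus strand of chromosome 9, the peak was at chr9:44881416-44881765, 350 bp wide, with a score of 20. This was the lowest score among the promoter peaks of the 10 genes, and only 6.05% of all promoter peaks in replicate 2 had a lower one. Its midpoint lay at −294 bp from the Kmt2a TSS. The peak contained a TSS of AC061963.1, an antisense transcript on the plus strand. In replicate 1, the peak nearest to a Kmt2a TSS was 401825 bp away. At Kmt2b (ENSMUSG00000006307.16, MLL2), on the minus strand of chromosome 7, the peak was at chr7:30588993-30589481, 489 bp wide, with a score of 74. This was the highest score among the promoter peaks of the 10 genes in replicate 2, above 82.0% of all promoter peaks in that list. Its midpoint lay at −511 bp from the TSS, and it contained the annotated start of the microRNA gene Mir3569 on the plus strand. In replicate 1, the nearest peak was 61324 bp from a Kmt2b TSS, so a high score in one list was not accompanied by a peak in the other.

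Dpy30 was the core subunit with a promoter peak in both replicates, and the peaks covered its TSSs. Dpy30 (ENSMUSG00000024067.14), a small dimeric subunit that binds Ash2l and is needed for full methyltransferase activity, lies on the minus strand of chromosome 17. Of its 6 annotated TSSs, 5 lie close together and 1 lies 7481 bp or more upstream of the others. The replicate 1 peak was at chr17:74316036-74316571, 536 bp wide, with a score of 59. The replicate 2 peak was at chr17:74316178-74316757, 580 bp wide, with a score of 66. Each peak contained all 5 TSSs, and the midpoints lay at −2 and −4 bp from the nearest one. They shared 394 bp, 73.5% and 67.9% of their widths, and the midpoint of replicate 2 lay 164 bp further towards the 5′ side of the gene. The scores were above 82.0% of all promoter peaks in replicate 1 and 77.1% in replicate 2. The replicate 1 peak covered 384 bp annotated as 5′ UTR and 36 bp of coding sequence, and the replicate 2 peak 286 bp of 5′ UTR, and no annotated exon of the gene covered the remaining bases of either peak. No peak was found at the single TSS further upstream.

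The other core subunits with a peak were bound in replicate 2 only. Ash2l (ENSMUSG00000031575.18), which with Rbbp5 activates the catalytic subunits, lies on the minus strand of chromosome 8 and has 11 annotated TSSs. Its peak was at chr8:25840784-25841499, 716 bp wide, with a score of 40. It reached 4 bp into the transcript that starts at its 3′ edge, and its midpoint lay at −354 bp from that TSS and 6553 bp downstream of the 5′-most TSS, in the first intron of the transcript that starts there. Chromosome 8 was denser in promoter peaks than the other autosomes, with 41.4% against 30.6% of protein-coding genes bound in replicate 2 and 26.5% against 15.7% in replicate 1, and the part of this difference in the Ash2l peak was not tested. Wdr5 (ENSMUSG00000026917.15), a WD40 scaffold that docks the MLL and SET1 proteins on the core, lies on the plus strand of chromosome 2. Its peak was at chr2:27515553-27515974, 422 bp wide, with a score of 37. It was the only promoter peak of the 10 genes that lay downstream of its TSS, with the midpoint at 606 bp and every base in the first intron. In replicate 1, the nearest peaks were 37843 bp from an Ash2l TSS and 39054 bp from a Wdr5 TSS.

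**Figure D2:**
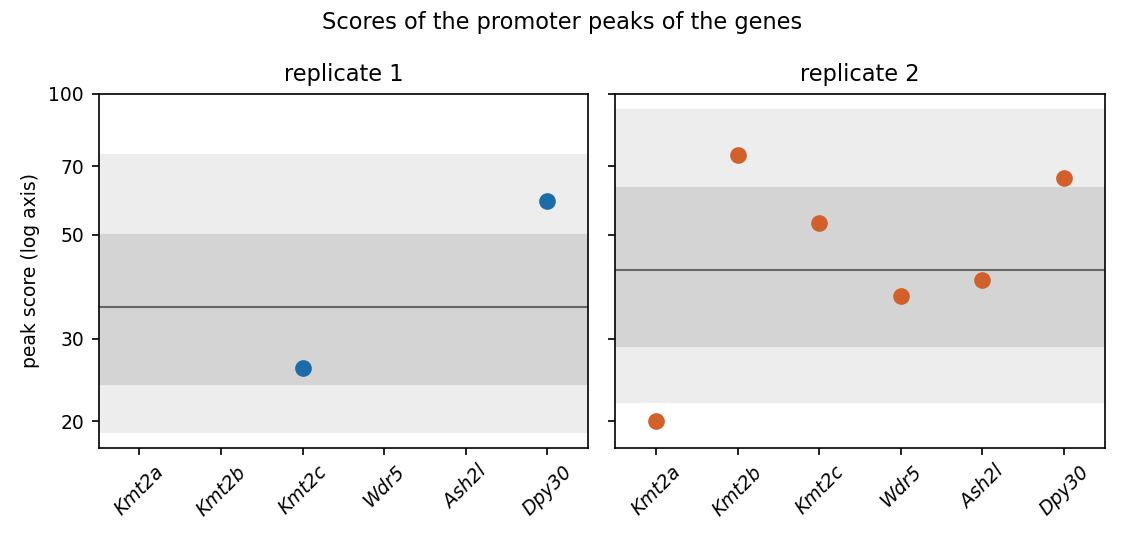
Scores of the promoter peaks (dots, log axis) are plotted for the 6 bound genes in each replicate. The line is the median of all promoter peaks of the list (35 in replicate 1 and 42 in replicate 2), the dark band runs from the 25th to the 75th percentile and the light band from the 10th to the 90th. Dpy30 was above the dark band in both lists and Kmt2b in replicate 2, whereas Kmt2a was below the light band.

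The promoter peaks of these genes had scores above 6.05% to 82.0% of all promoter peaks of their list, and larger median widths and distances to a TSS. In replicate 2, the 6 peaks had a median score of 46.5 and a median width of 534.5 bp, against 42 and 404 bp for all 6713 promoter peaks of the list. In replicate 1, the 2 peaks had a median score of 42.5 against 35 and were 744 and 536 bp wide, against a median of 351 bp for all 3342 promoter peaks. Measured to the nearest TSS of any gene, the median distance was 248.5 bp for the 6 peaks, against 124 bp for all promoter peaks of replicate 2. An annotated TSS of any gene was contained in 4 of the 6 peaks, against 67.7% of all promoter peaks. It was of the gene itself only at Ash2l and Dpy30, and at Kmt2b it was the annotated start of the microRNA gene Mir3569. Under the stricter rule that a TSS of the gene lies inside the peak, 1 of the 10 genes was bound in replicate 1 and 2 in replicate 2, where 9.73% and 20.6% of protein-coding genes met this rule. No test was made over so few peaks.

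Of the 4 genes without a promoter peak, Setd1b had peaks elsewhere, Kmt2d had peaks at its neighbour, and Setd1a and Rbbp5 had none nearby. Setd1b (ENSMUSG00000038384.16, a SET1/COMPASS catalytic subunit), on the plus strand of chromosome 5, had a peak inside the gene in both replicates. It was at chr5:123149883-123150231 in replicate 1, 349 bp wide, with a score of 69, and at chr5:123149779-123150221 in replicate 2, 443 bp wide, with a score of 33. The score of 69 was the highest of any peak in or near the 10 genes in replicate 1, above 90.6% of all peaks of that list, whereas 33 was above 42.5% of the peaks of replicate 2. The peaks shared 339 bp, 97.1% and 76.5% of their widths, and their midpoints lay 7100 and 7043 bp downstream of the nearest Setd1b TSS. They contained no annotated TSS and no coding sequence. They covered 99 and 203 bp at the end of the last exon of a retained-intron transcript, and no annotated exon of the gene covered the remaining bases. In replicate 2, a further peak upstream of Setd1b, at chr5:123138499-123138902 with a score of 23, lay at −3493 bp from its TSS, in the promoters of the noncoding genes 4932422M17Rik and AI480526.

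At Kmt2d (ENSMUSG00000048154.17, MLL4, the paralogue of Kmt2c), on the minus strand of chromosome 15, the nearest peaks were 10099 bp from a TSS in replicate 1 and 10375 bp in replicate 2. Both lay at the promoter of Rhebl1, with scores of 39 and 35. Setd1a (ENSMUSG00000042308.14), a SET1/COMPASS catalytic subunit on the plus strand of chromosome 7, had its nearest peak 139309 bp from a TSS in replicate 1. Rbbp5 (ENSMUSG00000026439.14), the core subunit that pairs with Ash2l, lies on the plus strand of chromosome 1 and was, of the 4 genes without a promoter peak, the one farthest from a peak in each replicate. Its nearest peaks were 345717 bp away in replicate 1 and 154354 bp in replicate 2, although it has 6 TSSs within 277 bp.

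**Figure D3:**
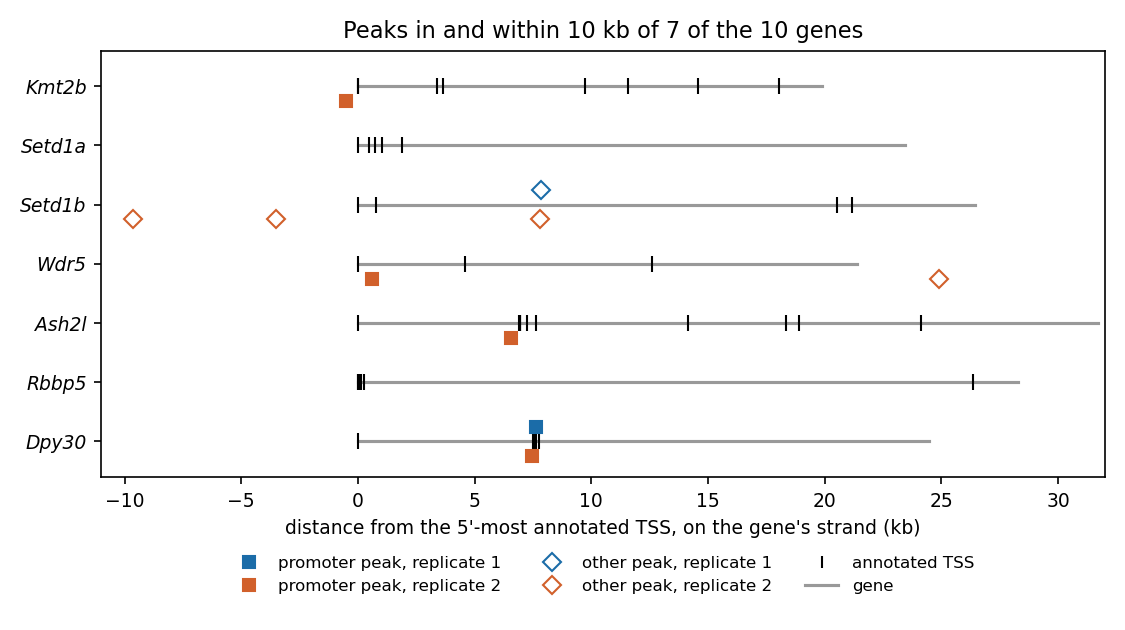
Peaks in or within 10 kb of the 7 shorter genes (Kmt2a, Kmt2c and Kmt2d are not drawn) are plotted by the distance of their midpoint in kb from the 5′-most TSS. Filled squares are promoter peaks, open diamonds are other peaks, black ticks are TSSs and the grey line is the gene. The Dpy30 and Ash2l peaks lie at internal TSSs, 7641, 7477 and 6553 bp from the 5′-most TSS, and the Setd1b peaks of both replicates lie within the gene at no TSS.

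In all, 7 peaks in or within 10 kb of the genes but outside their promoters were found in replicate 2, and 1, at Setd1b, in replicate 1. At Kmt2a, a peak at chr9:44882716-44882974, with the lowest score found in the list, 13, lay at −1549 bp from the TSS. Another, at chr9:44799338-44799753 with a score of 46, lay beyond the 3′ end at the promoter of Tmem25. At Kmt2c, a peak at chr5:25275850-25276108 with a score of 14 lay near the 3′ end and covered 74 bp of coding sequence. At Wdr5, a peak at chr2:27539875-27540228 with a score of 59 lay beyond the 3′ end, in the promoters of Gm13421 and of the snRNA gene Gm25541.

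The sequence under the peaks differed within the set. In windows of about 300 bp around the midpoints, the CpG observed over expected ratio, which is 1 where CpG occurs as often as its bases allow and low where CpG has been lost, was 1.01 and 0.927 at Dpy30 and 0.979 and 0.914 at Kmt2c in replicates 1 and 2. It was 0.754 at Kmt2a, 0.741 at Kmt2b and 0.644 at Ash2l, and lowest at Wdr5, with 0.285. The median of all promoter peaks was 0.734 in replicate 1 and 0.737 in replicate 2. Dpy30 and Kmt2c lay above it, Kmt2a and Kmt2b slightly above it, Ash2l below it and Wdr5 far below it. GC content ran from 51.8% at Ash2l and 53.2% at Wdr5 to 78.1% at Kmt2c in replicate 2, around a median of 63.1% for all promoter peaks of that list. The peak inside Setd1b was low in both, with a GC content of 50.5% and 49.2% and CpG ratios of 0.261 and 0.226. Soft-masked repeat sequence made up 0% to 19.9% of the promoter peak windows, so none of them was mostly repeat.

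Among the promoter peak windows, matches to the motif cores searched were found at Kmt2c and Dpy30 and at none of the other bound genes. CCAAT, the NF-Y core, was found in 0 of 6 windows of replicate 2, against 32.5% of all promoter peaks, and ATGGCG, the YY1 core, in 0 of 6, against 15.8%. GCATGCG, the NRF1 core, was found at Kmt2c in both replicates, where a match on each strand overlaps the other, and in 4.01% and 4.95% of all promoter peak windows of replicates 1 and 2. TCGCGA, the ZBTB33 core, was found in the replicate 1 windows of Dpy30 and Kmt2c, against 4.76% of all, and in none of the 6 windows of replicate 2, against 4.48%, with windows centred on other midpoints. The matches at Dpy30 (chr17:74316279-74316284) and Kmt2c lie inside the replicate 2 peaks too, outside the windows. A match is a match of letters and is not a binding site.

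CpG-rich promoter sequence was not particular to the bound genes. RefSeq promoter sequences from 250 bases before to 50 bases after a start (GRCm38.p6) were matched for 7 of the 10 genes, all but Kmt2b, Setd1b and Ash2l. The promoters of the unbound genes had CpG ratios of 0.917 at Kmt2d, 0.866 at Setd1a and 1.13 at Rbbp5, against a median of 0.384 for all 32851 RefSeq promoters. Those of the bound genes were 1.02 at Kmt2c, 0.839 at Kmt2a, 0.881 at Wdr5 and 0.91 to 1.0 at the 3 starts of Dpy30 under its peaks. The start of Dpy30 without a peak had a ratio of 0.081. Bound and unbound genes thus overlapped in this measure, and at Dpy30 the start with the lower ratio was the one without a peak.

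The cofactors of the complexes and the enzymes that remove the mark were counted by the same rule. Of 12 cofactor genes, 1 was bound in replicate 1 and 4 in replicate 2, beside 15.7% and 30.4% of all protein-coding genes. The gene bound in both was Kdm6a (UTX), the H3K27 demethylase subunit of the Kmt2c and Kmt2d complexes, with peaks at chrX:18162141-18162638 (score of 30) and chrX:18161965-18162604 (score of 90). Wdr82, a SET1-specific subunit, had a peak with a score of 39 in replicate 2, Bod1l, a SET1B-associated protein, 1 with a score of 52, and Men1 (menin), which links MLL1 and MLL2 to chromatin, 1 with a score of 32. Cxxc1, Hcfc1, Hcfc2, Bod1, Psip1, Ncoa6, Paxip1 and Pagr1a had none. Of 6 H3K4 demethylase genes, 1 was bound in replicate 1 and 3 in replicate 2, beside the same 15.7% and 30.4%. Kdm1b (LSD2) was bound in both, at chr13:47043210-47043524 (score of 61) and chr13:47043154-47043825 (score of 142), by peaks that also overlapped the promoter of Tpmt, a thiopurine methyltransferase gene. Kdm5a and Kdm5c had peaks with scores of 28 and 60 in replicate 2, of which that of Kdm5a also overlapped the promoter of Ccdc77, and Kdm1a, Kdm5b and Kdm5d had none. No test was made between the lists, in which 2 of 10, 1 of 12 and 1 of 6 genes were bound in both replicates, beside 12.0% of all protein-coding genes.

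**Figure D4:**
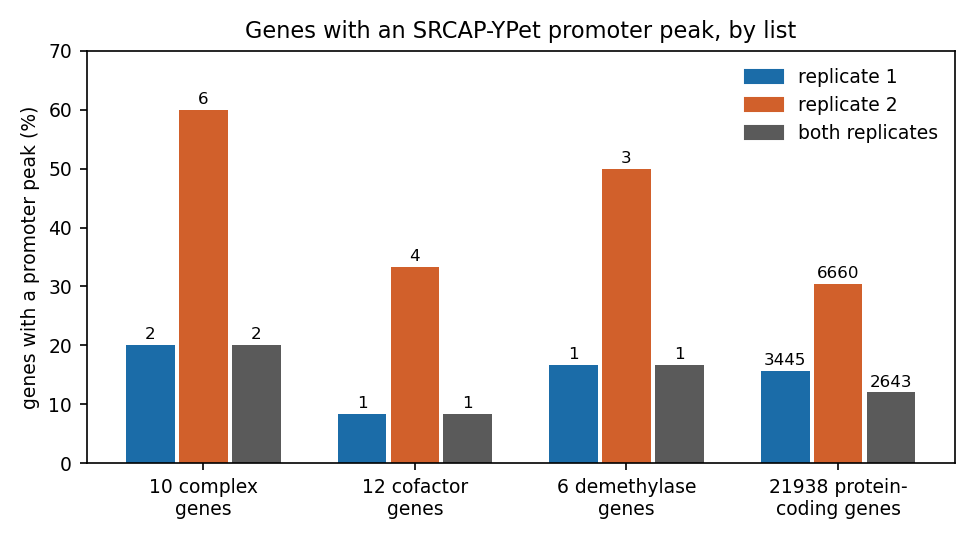
The percentage of genes with a promoter peak in replicate 1 (blue), replicate 2 (orange) and both replicates (grey) is plotted for the 10 complex genes, 12 cofactor genes, 6 demethylase genes and 21938 protein-coding genes, with the number of genes above each bar. In every list, the bar of replicate 2 is higher than that of replicate 1.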

How the data were processed

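SRCAP-YPet CUT&Tag was analysed in 2 replicates of control SYAT cells. For each, the authors deposited a list of peaks with a score, called per sample. The processing notes name STAR, Picard and MACS2, without versions, and the builds mm10 and dm6. The methods describe unique alignment, duplicate removal, downsampling to equal Drosophila read numbers, peak calling from paired-end fragments and blacklist removal for ChIP-seq and CUT&Tag together. The general peak calling command in the reporting summary includes an input control, which the methods section does not name, so its use for these lists is unclear. The 6 mitochondrial peaks per list lie outside the chromosomes that the stated filter keeps. Whether a control library or downsampling changed which weak peaks passed was not tested.

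Here, peaks were overlapped with GENCODE mouse release 21 promoters, and sequence was read from GRCm38. Distances were taken from peak midpoints and are signed by gene strand. The genes, the cofactor and demethylase lists and the rule to name all 10 genes, all bound genes of the other lists and genes sharing a peak were chosen with earlier results of these data known. No tests were made, since there is 1 group. Some peaks at neighbouring genes are not reported here. In a simulation of promoter overlap over 500 genes, 250 of 250 planted promoter peaks were recovered with 0 false calls. Alternatives covered the promoter window, transcripts, overlap, score, list length, sequence window, flanks and each replicate left out. Python 3.11.15, numpy 2.4.6, pandas 2.3.3 and matplotlib 3.10.9 were used.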

Additional observations from a re-analysis of the deposited data

How the results depend on the processing

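Of 59 values of 17 counts and medians under alternative settings, 42 stayed within 1.5-fold for a count or 1 SD for a median, 17 moved further and 0 reversed. Requiring a TSS inside the peak, the 10 genes gave 1 (replicate 1), 2 (replicate 2), 1 (both) and a mean of 1.5. The cofactors gave 2 in replicate 2 and the demethylases 1. The shares of protein-coding genes were then 9.73% in replicate 1, 20.6% in replicate 2 and 6.97% in both. With a score of at least 50, which removes most peaks, the 10 genes gave 1, 3, 1 and a mean of 2, where 4.21%, 13.1% and 2.99% of protein-coding genes were bound, and Dpy30 was the gene bound in both replicates. The cofactors then gave 0, 2 and 0, and 1 peak outside promoters was left in replicate 2. With a window of 500 bp on each side, 1 gene was bound in both replicates, since the Kmt2c peak of replicate 2 lay outside it. The share of all protein-coding genes was not computed for this window. Without the flanks, 2 peaks outside promoters were left in replicate 2. With lists of equal length, replicate 2 gave 5 genes, without Kmt2a, and 19.2% of protein-coding genes. Leaving out a replicate moved the mean count between 2 and 6, so without replicate 2 it was 2 in place of 4. Of 70 values for single genes, 59 were the same and 11 moved. Dpy30 kept a promoter peak in both replicates under every alternative, and Kmt2d, Setd1a, Setd1b and Rbbp5 had none under any. No paired analysis was possible because both samples belong to 1 group. Unknown depth limits every statement on peaks found in 1 replicate only.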
